A study of Homo sapiens with 9 samples.

Results

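The FGF receptors and their adaptors are the 7 genes *FGFR1*, *FGFR2*, *FGFR3*, *FGFR4*, *FGFRL1*, *FRS2* and *FRS3*, taken by symbol from a table of 59452 gene symbols, together with their 147 transcripts of 236920. All 7 were found, and all 7 passed the filter on low counts that left 15528 genes for testing. They were measured by RNA sequencing in MDA-MB-453, an established human breast cancer cell line that the sample labels call triple-negative. Each of 3 conditions had 3 libraries, all taken at 48 hours: attached cells with vehicle (DMSO), cells in forced suspension on poly-HEMA with vehicle, and cells in forced suspension with AT-0174 at 10 µmol/L, a compound that blocks TDO2 as well as IDO1. All were wild-type cells of this single line in DMEM with fetal bovine serum, so suspension and AT-0174 were each tested in one genetic background, and no attached cells received AT-0174. The labels number the libraries of a condition 1 to 3 and the study's methods call them biological triplicates, without saying which libraries were cultured together.

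Fibroblast growth factors are secreted ligands that bind receptor tyrosine kinases together with heparan sulfate, and some of them also need a klotho co-receptor. The kinase receptors are encoded by *FGFR1* to *FGFR4*. An activated receptor phosphorylates the docking proteins FRS2 and FRS3, which recruit GRB2 and SOS and so start the RAS–ERK cascade, and it also recruits phospholipase C gamma (*PLCG1*). FGFRL1 has receptor-like Ig loops but no tyrosine kinase domain. FGFR4 is the main receptor for the bile acid hormone FGF19, and MDA-MB-453 is known for an activating change in *FGFR4*, which gene counts cannot show.

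The part of the receptor that reads the ligand is the third Ig-like loop. In *FGFR1*, *FGFR2* and *FGFR3* the end of this loop comes from one of a pair of alternative exons, named IIIb and IIIc. FGFR2 with IIIb is the epithelial form that binds FGF7 and FGF10, whereas IIIc forms are usual in mesenchymal cells. In the gene models such a pair of exons was found in each of these 3 genes. The search took only exons within a set range of lengths. The *FGFR4* exon shown here, at 139 bases, is shorter than that range. The search could thus not find a pair that holds it, and the lack of a pair in *FGFR4* is not a result. The IIIb exons of *FGFR2* and *FGFR3* are shown because transcripts that carry them held much of the reads of these 2 genes, the *FGFR3* IIIc exon is shown as the alternative, and the *FGFR4* exon is the one of its 17 coding exons most like the *FGFR3* IIIc exon (67.6% identity, next best 52.0%). All are written 5′ to 3′ on the coding strand from GRCh38, at chr10:121518682-121518829 (minus strand), chr4:1802914-1803064 and chr4:1803692-1803836 (both plus strand) and chr5:177092646-177092784 (plus strand). Capitals mark the longest run shared by the *FGFR3* IIIb and IIIc exons, for *FGFR2* the longest run shared with the *FGFR3* IIIb exon, and for *FGFR4* the longest run shared with the *FGFR3* IIIc exon.
FGFR2 IIIb exon: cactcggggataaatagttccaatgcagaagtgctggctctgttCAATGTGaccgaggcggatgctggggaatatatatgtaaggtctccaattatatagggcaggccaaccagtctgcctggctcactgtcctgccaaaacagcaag
FGFR3 IIIb exon: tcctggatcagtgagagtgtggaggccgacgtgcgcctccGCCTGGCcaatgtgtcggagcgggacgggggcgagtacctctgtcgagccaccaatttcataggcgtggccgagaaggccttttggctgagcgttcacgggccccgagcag
FGFR3 IIIc exon: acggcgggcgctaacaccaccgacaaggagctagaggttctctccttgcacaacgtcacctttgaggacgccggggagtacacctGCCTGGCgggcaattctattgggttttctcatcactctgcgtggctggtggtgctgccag
FGFR4 exon: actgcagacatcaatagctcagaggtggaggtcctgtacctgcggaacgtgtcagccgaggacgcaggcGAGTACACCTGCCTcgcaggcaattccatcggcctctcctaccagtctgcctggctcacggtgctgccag

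The longest run shared by the *FGFR3* IIIb and IIIc exons was 7 bases, and their identity over a global alignment was 48.7%. The IIIb exons of *FGFR2* and *FGFR3* shared 7 bases at most in a row and were 54.9% identical. The *FGFR4* exon shared a run of 14 bases with the IIIc exon of *FGFR3* and had 57.5% identity with the IIIb exon of that gene. Its identity with the IIIb exon of *FGFR2* was 59.7%.

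The libraries held 36649997 to 48019126 estimated counts, and the limit set by a count of 0 was 3 counts, which is 0.0625 to 0.0819 CPM (counts scaled to a library total) and covers counting error only. The 9 luminal apocrine markers summed here, among them *FOXA1* and *KRT8*, were all at a level of 1 or more in TPM, a unit that scales reads by transcript length, in every library. Their summed level was 5930 to 6163 TPM in attached cells, 7058 to 7103 TPM in suspended vehicle cells and 6698 to 7240 TPM with AT-0174. Of the 5 fibroblast, 4 immune and 3 endothelial markers, *COL1A1* and *CD68* reached 1 TPM in every library, and *DCN*, *LUM*, *CD3E* and *MS4A1* were at 0 throughout. Of the 5 basal markers *TP63* reached 1 TPM, and the list summed to 2.97 to 4.04 TPM in attached cells, 3.19 to 3.82 TPM in suspended vehicle cells and 3.10 to 3.56 TPM with AT-0174. The fibroblast list, almost all of it *COL1A1*, summed to 55.4 to 66.0 TPM, 53.8 to 56.4 TPM and 51.6 to 54.5 TPM in the same order, the immune list to 1.26 to 4.63 TPM over all libraries, and the endothelial list to at most 0.209 TPM. Transcripts of the mitochondrial genome took 7.56% to 9.32% of the counts in attached cells, 4.05% to 4.34% in suspended vehicle cells and 3.73% to 5.51% with AT-0174. Attached replicate 3 had the highest of these shares and stood apart from its replicates over all genes, at a chi-square per gene of 11.4 and 12.4 from them beside 3.14 between the other two. The same measure was 4.77 to 5.85 within suspended vehicle cells and 6.96 to 17.7 within AT-0174 cells. The part of this shift and of the luminal marker sum in the results that follow was not tested. In bulk RNA, fewer cells that express a gene and less of its RNA per cell cannot be told apart.

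Per length, one receptor stood far above the rest. *FGFR4* had a level of 2023, 1966 and 2019 TPM in attached cells, 2218, 2390 and 2361 TPM in suspended vehicle cells, and 2170, 2115 and 2134 TPM with AT-0174. All suspended libraries lay above all attached ones on this scale. Among all genes in the table *FGFR4* ranked between 38 and 41 by TPM in attached cells, between 38 and 41 in suspended vehicle cells, and 39 or 40 with AT-0174. Of the TPM of the 4 kinase receptors together, *FGFR4* made up 99.0% to 99.1% in attached cells, 99.2% to 99.5% in suspended vehicle cells and 99.3% to 99.4% with AT-0174. It was 121 times the next member in attached cells, 153 times in suspended vehicle cells and 132 times with AT-0174.

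*FGFRL1*, *FGFR1* and *FRS2* formed a middle tier. In attached cells their mean levels were 16.5 ± 3.04 TPM for *FGFRL1*, 14.2 ± 1.62 TPM for *FGFR1* and 12.9 ± 1.20 TPM for *FRS2* (SD, n = 3), and neighbours in this order did not differ beyond their spread. In suspended vehicle cells *FRS2* came first of the 3 at 15.2 ± 0.874 TPM, followed by *FGFRL1* at 14.5 ± 1.70 TPM and *FGFR1* at 10.8 ± 1.70 TPM (SD, n = 3), again with overlap between neighbours. With AT-0174 the levels were 16.2 ± 2.45 TPM for *FGFRL1*, 14.1 ± 1.94 TPM for *FRS2* and 10.6 ± 1.04 TPM for *FGFR1* (SD, n = 3), and the *FGFR1* libraries lay below all *FRS2* libraries. The order within the tier depends on the unit. A second unit divided counts by the mean effective length of a gene's annotated transcripts in each library, then scaled them to a fixed total. This mean weights short or unexpressed transcripts as much as the main one. In that unit *FRS2*, the broadly expressed docking protein, came first of the 3 in all 3 conditions. In attached cells *FRS2* was at 20.9 ± 0.215 against 16.3 ± 2.61 for *FGFRL1* and 13.9 ± 0.355 for *FGFR1* (SD, n = 3). In either unit *FRS2* was far under *FGFR4*.

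The lowest tier held *FGFR3*, *FRS3* and *FGFR2*. In attached cells *FGFR3* was at 2.38 ± 0.465 TPM, *FRS3* at 2.26 ± 0.473 TPM and *FGFR2* at 1.99 ± 0.216 TPM (SD, n = 3), and neighbours overlapped. In suspended vehicle cells *FGFR2* was at 1.27 ± 0.182 TPM, below all libraries of *FRS3* at 2.03 ± 0.432 TPM and of *FGFR3* at 2.84 ± 0.649 TPM (SD, n = 3). With AT-0174 *FGFR2* was lowest again at 0.944 ± 0.0988 TPM, under *FGFR3* at 1.99 ± 0.349 TPM and *FRS3* at 2.21 ± 0.179 TPM (SD, n = 3). In the second unit, counts over the mean effective length of a gene's transcripts, *FRS3* lay above *FGFR3* in all 3 conditions. In attached cells *FRS3* was at 3.76 ± 0.771 against 2.10 ± 0.0663 (SD, n = 3). In TPM the ratio of *FRS2* to *FRS3* was between 5.13 and 9.27 in the attached and suspended libraries with vehicle, and between 5.58 and 7.51 with AT-0174.

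**Figure D1:**
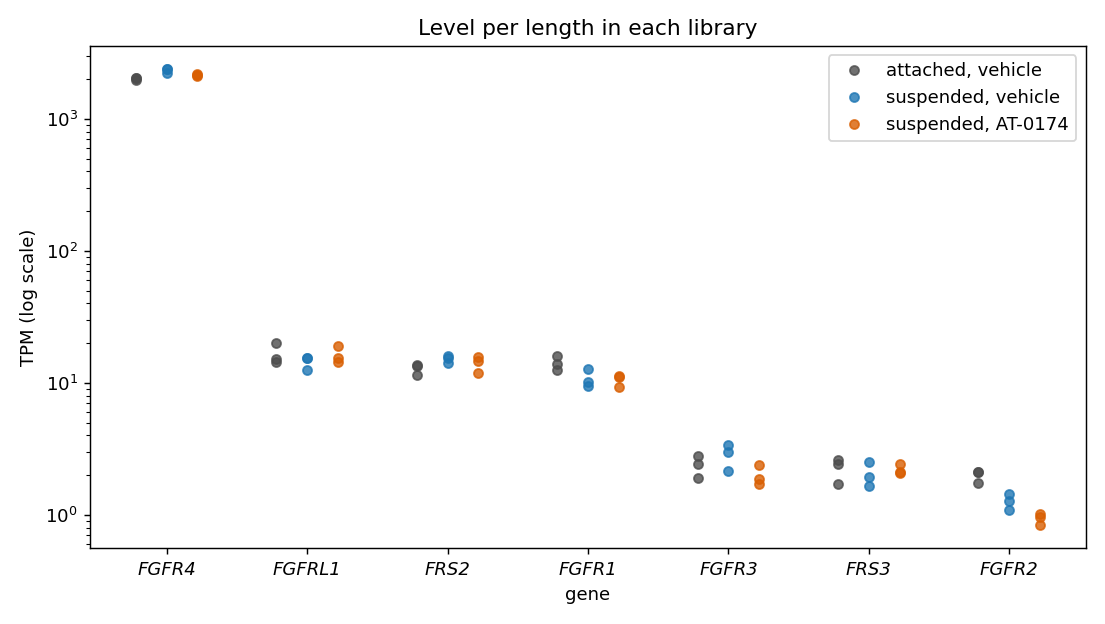
Level of each gene in TPM (log axis) in each of the 9 libraries, coloured by condition. The *FGFR4* points lie between 1966 and 2390 TPM and those of all other genes lie below them by more than an order of magnitude.

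Suspension was compared with attachment in cells with vehicle to ask which receptors and adaptors differed after loss of anchorage. *FGFR4* rose, and *FGFR1*, *FGFR2* and *FGFRL1* fell. *FGFR3*, *FRS2* and *FRS3* did not pass the test. The called members were 4 of 7, against 21.2% of all genes tested, with 1 higher against 10.4% of all genes and 3 lower against 10.8%. The test was edgeR's quasi-likelihood test with Benjamini–Hochberg adjustment over all genes, and called means an adjusted p under 0.05. The median log2 fold change of the 7 was -0.26, beside -3e-04 for all genes tested. Libraries did not overlap between attached and suspended cells for 5 of the 7, against 38.1% of all genes. When counts were rebuilt from TPM, which takes each library's effective lengths into account, no member was called, with the same directions and adjusted p-values of 0.0561 for *FGFR1*, 0.0501 for *FGFR2*, 0.0654 for *FGFR4* and 0.316 for *FGFRL1*, and all genes called dropped from 3297 to 1396.

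*FGFR2* (ENSG00000066468, chr10:121478332-121598458, minus strand) encodes the receptor that in epithelia answers FGF7 and FGF10. Its level was 4.65, 4.98 and 4.09 CPM in attached cells, then 2.53, 2.15 and 2.28 CPM in suspended vehicle cells, and 1.82, 2.39 and 2.00 CPM with AT-0174. Every attached library lay above every suspended one, and the suspended groups overlapped. *FGFR2* was 1.97-fold lower in suspension with vehicle (log2 fold change -0.98, SE 0.143, adjusted p = 0.000852 by edgeR's quasi-likelihood test). These values rest on 159 to 180 counts per attached library and 88 to 100 counts per suspended library.

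*FGFR1* (ENSG00000077782, chr8:38400215-38468834, minus strand), a kinase receptor broadly used in mesenchymal tissue, was at 25.2, 25.0 and 26.8 CPM when attached and 21.5, 22.2 and 20.8 CPM in suspended vehicle cells. With AT-0174 it was at 19.9, 19.8 and 20.7 CPM, lower than in every vehicle library. The fall in suspension was 1.19-fold (log2 fold change -0.26, SE 0.0474, adjusted p = 0.00330 by edgeR's quasi-likelihood test). With counts rebuilt from TPM the log2 fold change was -0.49, so the size of this fall depended on the measure. TPM depend on length and on how reads are split between transcripts, and the part of each was not tested.

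*FGFR4* (ENSG00000160867, chr5:177086905-177098144, plus strand) was at 2803, 2767 and 2860 CPM when attached and 3050, 3172 and 3140 CPM in suspended vehicle cells. With AT-0174 it was at 3003, 2920 and 2901 CPM, between the other conditions without overlap. The rise in suspension was 1.11-fold (log2 fold change 0.15, SE 0.0289, adjusted p = 0.00390 by edgeR's quasi-likelihood test). It rests on 100026 to 111072 counts per attached library and 118027 to 139917 per suspended library with vehicle, so the smallest called change among the members was also the one with the most counts.

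*FGFRL1* (ENSG00000127418, chr4:1009936-1026898, plus strand), the receptor without a kinase, was at 20.6, 23.4 and 28.9 CPM in attached cells. It was at 20.2, 17.9 and 18.4 CPM in suspended vehicle cells and 20.7, 25.4 and 23.2 CPM with AT-0174. Attached replicate 3, which stood apart from the other attached libraries over all genes, was the highest. The nearest libraries of the attached and suspended vehicle conditions were at 20.6 and 20.2 CPM. *FGFRL1* was 1.29-fold lower in suspension (log2 fold change -0.37, SE 0.109, adjusted p = 0.0301 by edgeR's quasi-likelihood test). The call was lost without attached replicate 3 (log2 fold change -0.22, adjusted p = 0.125), without suspended vehicle replicate 2 (-0.33, adjusted p = 0.108) and without suspended vehicle replicate 3 (-0.35, adjusted p = 0.0881).

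*FGFR3* (ENSG00000068078, chr4:1793293-1808872, plus strand), a kinase receptor best known from cartilage and urothelium, was at 4.10, 3.90 and 4.22 CPM in attached cells. It was at 5.04, 4.92 and 4.71 CPM in suspended vehicle cells and 3.50, 3.61 and 4.06 CPM with AT-0174. The suspended libraries with vehicle lay above those of both other conditions. The difference from attached cells did not pass the test (log2 fold change 0.26, SE 0.101, adjusted p = 0.0865 by edgeR's quasi-likelihood test).

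The adaptors did not pass the test. *FRS2* (ENSG00000166225, chr12:69470349-69579793, plus strand) was at 37.0, 37.7 and 37.8 CPM in attached cells, then 36.5, 40.0 and 39.0 CPM in suspended vehicle cells and 37.4, 37.9 and 41.8 CPM with AT-0174, with overlap throughout. Its log2 fold change in suspension was 0.04 (SE 0.0512, 95% interval -0.06 to 0.14, adjusted p = 0.648 by edgeR's quasi-likelihood test), which leaves out a change as large as that of *FGFR2*. *FRS3* (ENSG00000137218, chr6:41770176-41786542, minus strand) was at 2.46, 3.57 and 3.73 CPM in attached cells, then 2.22, 3.26 and 2.55 CPM in suspended vehicle cells and 3.23, 2.99 and 2.77 CPM with AT-0174. Its log2 fold change in suspension was -0.28 (SE 0.184, 95% interval -0.64 to 0.08, adjusted p = 0.317), a much wider interval on 86 to 145 counts per library.

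**Figure D2:**
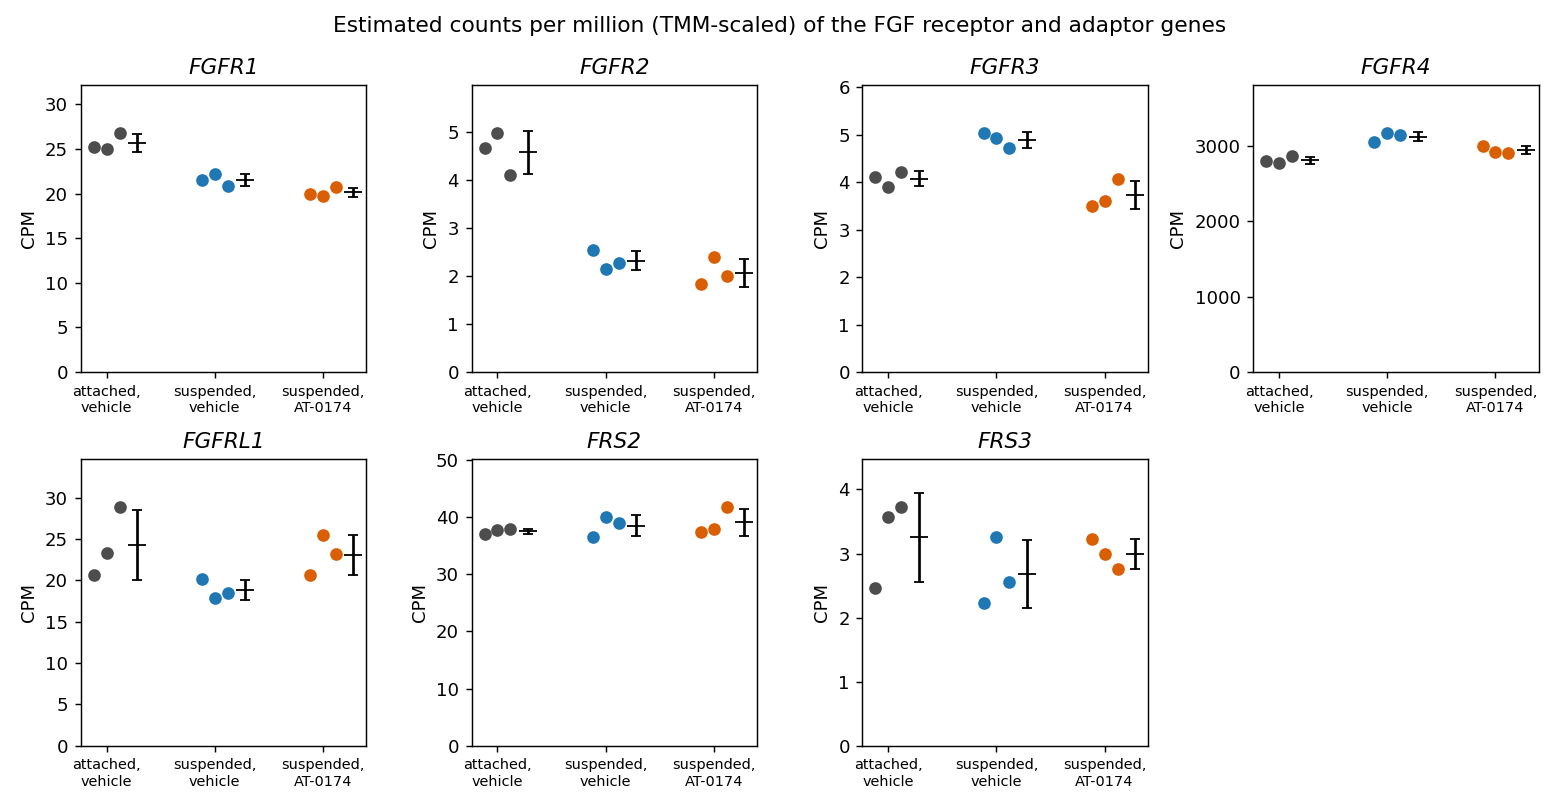
TMM-scaled CPM of each gene (vertical axis, from 0) in each library by condition, with the mean and SD of the 3 libraries beside the points. *FGFR2* falls from a mean of 4.58 to 2.32 CPM in suspension, and *FGFR4* moves from 2810 to 3120 CPM.

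AT-0174 was compared with vehicle in suspended cells to ask whether blocking both tryptophan-catabolizing enzymes changed these genes. No member was called (0 of 7), against 0.779% of all genes tested, 0.522% higher and 0.258% lower. At an unadjusted p under 0.05 there were 3 of 7, a count for which no share of all genes was taken. DESeq2 and limma-voom also called 0. Libraries did not overlap between the conditions for 4 of the 7 (*FGFR1*, *FGFR3*, *FGFR4* and *FGFRL1*), against 15.4% of all genes. The median log2 fold change of the 7 was -0.09, beside 0.0013 for all genes tested. Both comparisons use the suspended vehicle libraries, so their values are not independent.

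*FGFR3* had the smallest p of the members in this comparison, with a log2 fold change of -0.39 (SE 0.101, adjusted p = 0.134 by edgeR's quasi-likelihood test). *FGFR4* had a log2 fold change of -0.09 (SE 0.0289, adjusted p = 0.324) and *FGFRL1* one of 0.29 (SE 0.108, adjusted p = 0.385). *FGFRL1* was called only when genes with low counts were not filtered out, with an adjusted p of 0.000197. *FGFR1* had a log2 fold change of -0.09 (adjusted p = 0.6001) and *FGFR2* one of -0.17 (95% interval -0.46 to 0.12, adjusted p = 0.820). For *FRS2* the log2 fold change was 0.02 (95% interval -0.08 to 0.12) and for *FRS3* 0.16 (95% interval -0.20 to 0.52).

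**Figure D3:**
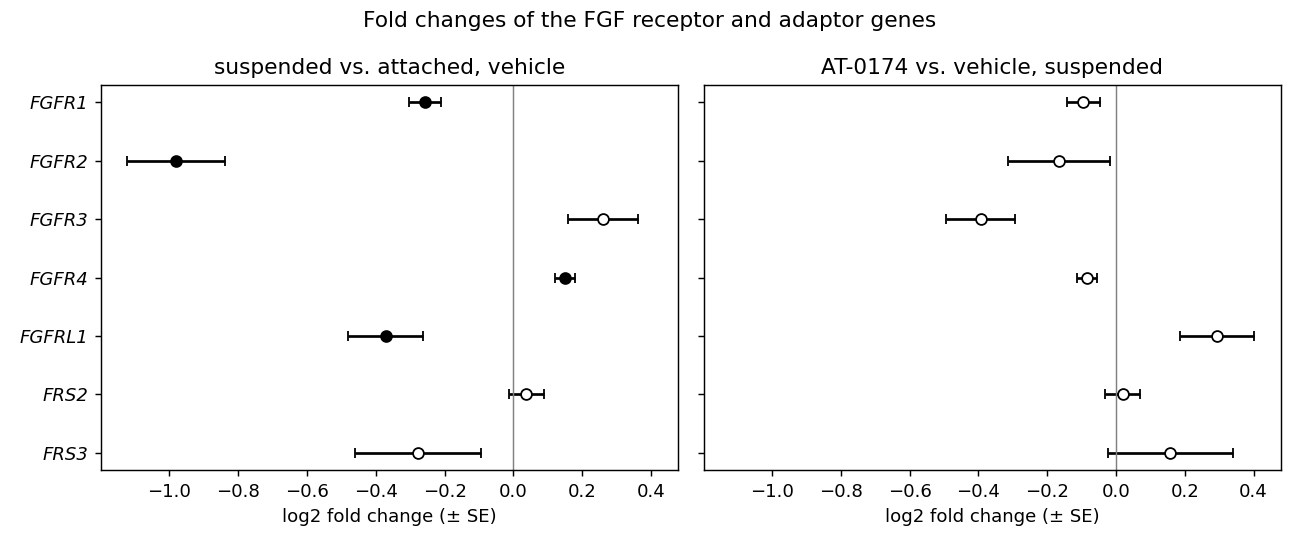
Log2 fold change with its SE for each gene in the suspension comparison (left) and the AT-0174 comparison (right), filled where the adjusted p was under 0.05. The filled points are *FGFR1*, *FGFR2*, *FGFR4* and *FGFRL1* on the left, and none is filled on the right.

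At the level of transcripts, only the abundant receptor had estimated reads on all of its transcripts in every library. Whether the split of its reads between transcripts is right was not tested. All 16 annotated transcripts of *FGFR4* had at least 1 estimated read in every library, against 6 of 57 for *FGFR1*, 0 of 41 for *FGFR2*, 1 of 10 for *FGFR3*, 4 of 7 for *FGFRL1*, 3 of 11 for *FRS2* and 1 of 5 for *FRS3*. Of the transcripts of these genes, 46 passed the filter for testing, 16 of them from *FGFR4*. In suspended against attached cells 1 of the 46 was called, against 0.252% of all transcripts tested. With AT-0174 0 were called, against 0.0345% of all transcripts, and limma-voom also called 0. At an unadjusted p under 0.05 there were 3 of the 46, with no share of all transcripts taken.

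The called transcript was FGFR4-207, which encodes the full receptor. FGFR4-201 and FGFR4-207 have the same coding exons (2406 bases, 802 codons) and differ only in their untranslated ends. Together they held 57.3% to 58.4% of the *FGFR4* TPM in attached cells, 61.5% to 62.3% in suspended vehicle cells and 59.5% to 64.0% with AT-0174. By estimated reads their joint share was 80.1% to 80.7%, 82.3% to 83.3% and 81.8% to 84.2% in the same order. The attached libraries were the lowest by either measure, with no overlap with the suspended ones.

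FGFR4-207 was at 633, 624 and 644 TPM in attached cells, 774, 826 and 860 TPM in suspended vehicle cells and 801, 723 and 758 TPM with AT-0174. All suspended libraries lay above the attached ones. Its log2 fold change in suspension was 0.30 (SE 0.0385, adjusted p = 0.0344 by edgeR's quasi-likelihood test over transcripts). The call was lost when any one of 8 of the 9 libraries was left out, all but AT-0174 replicate 1, with adjusted p-values between 0.0407 and 0.157 over the 9 and a log2 fold change between 0.26 and 0.32. FGFR4-201, the other full-length transcript, was at 530, 526 and 512 TPM in attached cells and 590, 647 and 611 TPM in suspended vehicle cells, with a log2 fold change of 0.16 (SE 0.0360, adjusted p = 0.114).

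The remaining *FGFR4* transcripts above 5% of the gene's TPM were shorter. FGFR4-208, with 603 coding bases, held 9.94% ± 0.0173 of the TPM in attached cells and 10.1% ± 1.03 in suspended vehicle cells (SD, n = 3). FGFR4-210, which retains an intron, held 10.0%, 10.0% and 9.46% in attached cells, 7.10%, 8.39% and 7.87% in suspended vehicle cells and 6.92%, 8.74% and 8.07% with AT-0174, so the attached libraries were the highest. FGFR4-209, which has no defined coding sequence, held between 4.52% and 6.54% in every library.

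A change in transcript usage, meaning the shares of a gene's transcripts apart from its level, was called in 0 of the members in suspension, against 2.33% of the genes tested, and in 0 with AT-0174, against 1.5%. This test was edgeR's diffSpliceDGE with a Simes p per gene. At an unadjusted Simes p under 0.05 it gave 1 member, *FGFR1*, in either comparison (adjusted p = 0.0539 in suspension and 0.0892 with AT-0174). No share of all genes was taken at that unadjusted threshold. Among single transcripts FGFR1-206 passed the same tool's usage test, adjusted over transcripts, in suspension (adjusted p = 0.0277) and with AT-0174 (adjusted p = 0.0456). It rests on 168, 0 and 200 estimated reads in attached cells, 0 in each suspended vehicle library and 208, 99 and 0 with AT-0174, so the conditions overlap at 0. The *FGFR4* adjusted p was 1 in both. With limma's diffSplice on the same counts *FGFR4* was called in suspension (adjusted p = 5.25e-05) and 0 members with AT-0174, and without attached replicate 2 *FGFR1* was called (adjusted p = 0.0305). *FRS3* had 1 tested transcript and could not enter the usage test.

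**Figure D4:**
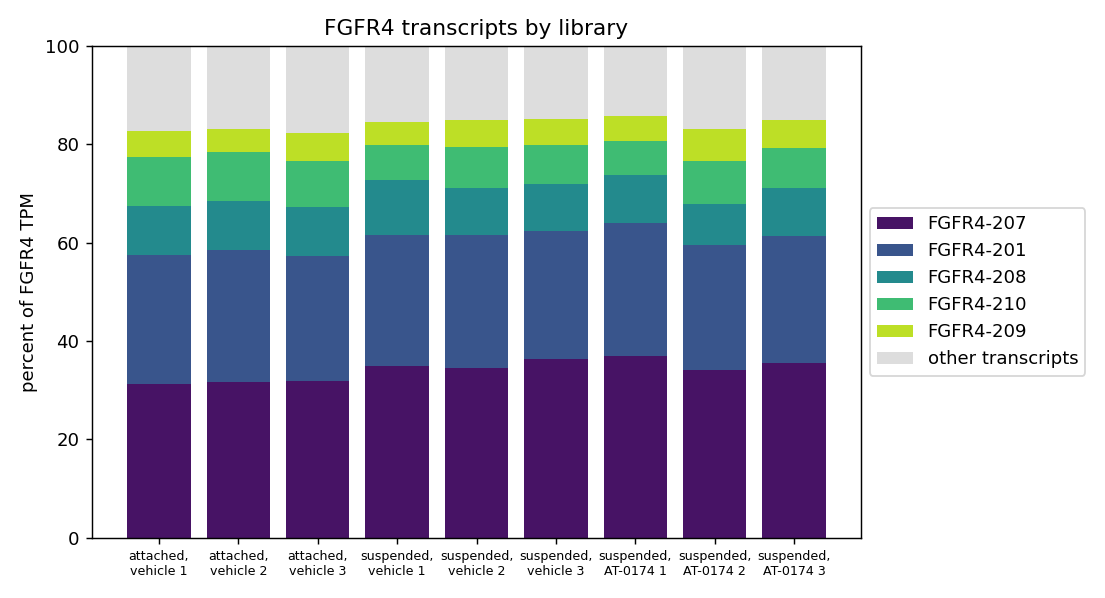
Percent of the *FGFR4* TPM in each library held by its 5 main transcripts, with the other transcripts in grey. FGFR4-207 takes 31.3% to 31.9% in attached cells and 34.6% to 36.4% in suspended vehicle cells.

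In the rarer genes the estimated shares of transcripts varied widely from library to library, and how much of this is error of the estimate was not tested. *FGFR1* had 7 transcripts above 5% of its TPM, led by FGFR1-207, whose share was between 18.2% and 32.8%. FGFR1-206 was at 0 in 5 of the 9 libraries, among them all 3 suspended ones with vehicle, and took up to 12.2% elsewhere. FGFR1-204 held 3.47% to 14.5%, FGFR1-255 held 1.95% to 18.0%, and the intron-retaining FGFR1-248 held 5.34% to 11.9%. FGFR1-236, which is annotated for nonsense-mediated decay, was at 0 in 3 libraries and reached 26.1%, and FGFR1-237 was at 0 in 2 and reached 17.4%.

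For *FGFR2* none of the 8 transcripts above 5% was present in every library. FGFR2-215, a full receptor with the IIIb exon, was at 0 in 2 libraries and held 29.7% to 69.3% in the others. FGFR2-211 and FGFR2-224 were each at 0 in 3 libraries, FGFR2-240 in 4, FGFR2-219 in 7, and FGFR2-210, FGFR2-227 and FGFR2-230 in 8. For *FGFR3*, FGFR3-202 carried the IIIb exon in every library with 24.7% to 74.1% of the TPM, while FGFR3-203 and FGFR3-210 were each at 0 in 4 libraries and FGFR3-206 in 2.

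Reads were therefore summed over all transcripts that carry one of the third-loop exons, as estimated reads with no scaling for depth. A transcript's reads can lie anywhere along it, so these sums are not reads over the exon itself, and transcripts with both or neither exon were left out. *FGFR2* transcripts with the IIIb exon had 107, 86 and 107 reads in attached cells, 64, 73 and 60 in suspended vehicle cells and 61, 61 and 59 with AT-0174. This was 47.6% to 67.2% of the gene's reads in attached cells, 60.3% to 76.8% in suspended vehicle cells and 61.4% to 69.2% with AT-0174, so the conditions overlapped in this share.

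*FGFR3* had more reads on IIIb than on IIIc transcripts in 9 of 9 libraries. Its IIIb transcripts held 51.4% to 92.6% of the reads of the gene and its IIIc transcripts 1.68% to 15.4%. *FGFR1* went the other way, with IIIc above IIIb in 9 of 9 libraries, at 39.5% to 54.2% of its reads against 19.1% to 29.2%. All *FGFR1* IIIb reads were those of FGFR1-207, since FGFR1-246, the only other transcript with that exon, also has the IIIc exon. No test was run on these sums.

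**Figure D5:**
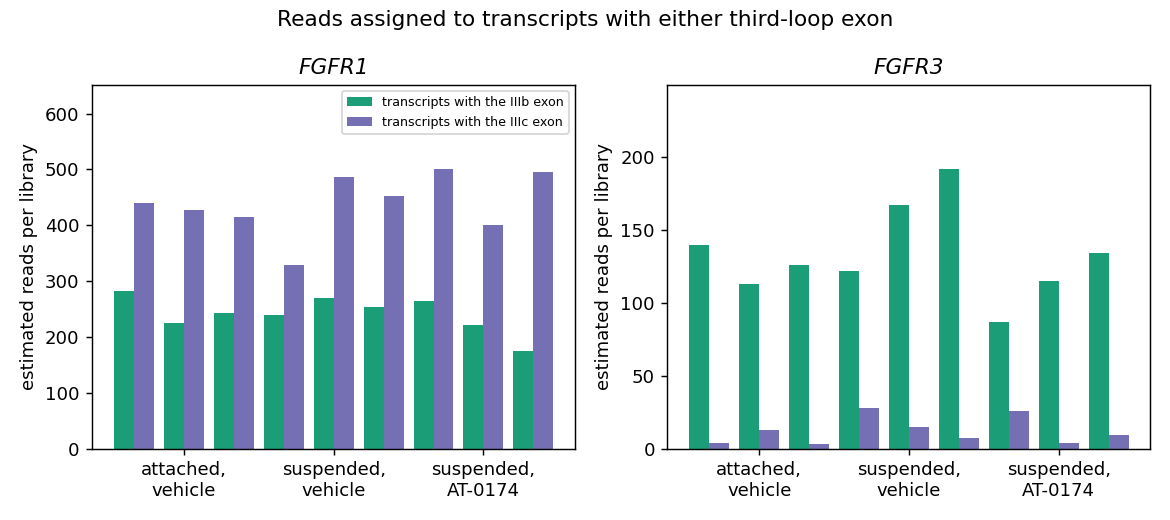
Estimated reads per library assigned to transcripts with the IIIb exon (green) or the IIIc exon (purple) of *FGFR1* and *FGFR3*, in the order of replicates 1 to 3 within each condition. IIIc is the taller bar in all 9 libraries of *FGFR1*, and IIIb in all 9 of *FGFR3*.

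The ligands were near or below the limit of detection. None of the 18 secreted FGF genes passed the filter on low counts, and 7 of them (*FGF2*, *FGF5*, *FGF6*, *FGF10*, *FGF16*, *FGF19* and *FGF21*) had 0 counts in every library. *FGF18* and *FGF22* were the only ones above 3 counts in every library, with 4 to 14 and 4 to 12 counts. *FGF19*, the hormone that acts through FGFR4, was thus not detectable at this depth. The klotho co-receptors were also scarce, with *KL* at 0 throughout. *KLB*, the partner of FGFR4 for FGF19, was at 1.13 ± 0.337 CPM when attached and 1.35 ± 0.373 CPM in suspended vehicle cells (SD, n = 3), between 0.172 and 0.437 TPM over all libraries. *KLB* and these ligands are named after their values were seen.

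Of 16 co-receptors and FGF-binding proteins 10 were tested, and in suspension 2 rose and 1 fell, with a median log2 fold change of 0.03, beside 10.4% higher and 10.8% lower among all genes tested. The risen genes were the heparan sulfate proteoglycans *SDC1* (syndecan-1), from 455 ± 21.3 to 563 ± 26.5 CPM (log2 fold change 0.31, adjusted p = 0.000736 by edgeR's quasi-likelihood test) and *SDC4* (syndecan-4), from 77.3 ± 4.64 to 90.2 ± 2.03 CPM (log2 fold change 0.22, adjusted p = 0.00354). *CDH2*, the N-cadherin that can bind FGFR1, fell from 22.2 ± 0.376 to 17.6 ± 0.936 CPM in suspension (log2 fold change -0.34, adjusted p = 0.00131). It was also the 1 gene of the 10 tested that edgeR called with AT-0174, beside 0.258% of all genes called lower. Its level was then 14.5 ± 0.490 CPM (SD, n = 3, log2 fold change -0.28, adjusted p = 0.0275). That second call was lost without any one of the 6 suspended libraries, with adjusted p-values from 0.0528 to 0.128, with only the 6 libraries of the comparison (0.0648) and with counts rebuilt from TPM (0.331). DESeq2, which called 239 genes in all with AT-0174, called 2 of the list, *CDH2* and *SDC3* (syndecan-3). For *SDC3*, named after its values were seen, edgeR's log2 fold change was -0.24 (adjusted p = 0.0585). The median of the list with AT-0174 was -0.04.

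The 22 proximal signaling genes were all tested. In suspension 1 rose and 1 fell, beside 10.4% and 10.8% of all genes tested, and 20 were not called. With AT-0174 0 were called by edgeR or limma-voom, beside 0.779% of all genes by edgeR. DESeq2, which called 239 genes in all, called 1 of the list (*GRB2*, adjusted p = 0.00549). At an unadjusted p under 0.05 by edgeR there were 3, with no share of all genes taken. *GRB2*, the adaptor that FRS2 recruits, rose from 565 ± 5.18 to 668 ± 11.9 CPM (log2 fold change 0.24, adjusted p = 0.000159). *PLCG1* fell from 184 ± 12.5 to 152 ± 2.58 CPM (log2 fold change -0.27, adjusted p = 0.00204). The list's median log2 fold change was 0.01 in suspension and -0.00325 with AT-0174. At 617 ± 7.76 CPM with AT-0174 (SD, n = 3), *GRB2* did not pass edgeR's test against vehicle (adjusted p = 0.108). *PTPN11*, the phosphatase SHP2 that docks on FRS2, was at 253 ± 7.14, 248 ± 1.16 and 250.4 ± 1.25 CPM in attached, suspended vehicle and AT-0174 cells.

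Of the 13 negative regulators, all tested, 3 rose and 1 fell in suspension, beside 10.4% and 10.8% of all genes tested, and 2 rose with AT-0174, beside 0.522%. *DUSP6*, the phosphatase that inactivates ERK, was at 133 ± 2.08 CPM in attached cells, 178 ± 5.41 CPM in suspended vehicle cells and 205 ± 7.48 CPM with AT-0174 (SD, n = 3), with log2 fold changes of 0.42 (adjusted p = 1.54e-05) and 0.21 (adjusted p = 0.0134) by edgeR's quasi-likelihood test. *SPRY1*, a Sprouty inhibitor of RAS activation, was at 33.4 ± 1.60, 42.0 ± 1.72 and 49.1 ± 1.29 CPM in the same order, with log2 fold changes of 0.33 (adjusted p = 0.000803) and 0.23 (adjusted p = 0.0431). The AT-0174 call of *DUSP6* was lost without vehicle replicate 1 or 3 or AT-0174 replicate 2 (adjusted p from 0.0643 to 0.0855), and that of *SPRY1* without any library but attached replicate 3 (adjusted p from 0.0515 to 0.210). With counts rebuilt from TPM both AT-0174 calls were lost (adjusted p = 0.192 for *DUSP6* and 0.502 for *SPRY1*). *SPRED1* rose by 0.18 on the log2 scale (adjusted p = 0.0204), a call lost without attached replicate 3 or suspended vehicle replicate 2 or 3 (0.0532 to 0.0853). *SPRED3* fell by 0.93 on the log2 scale (adjusted p = 0.0136), a call lost without attached replicate 3 (log2 fold change -0.59, adjusted p = 0.0579) and with counts rebuilt from TPM (0.259). The medians of the list were 0.08 in suspension and -6e-04 with AT-0174.

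Of the 15 ERK-induced targets 13 were tested, and 6 rose and 1 fell in suspension, beside 10.4% and 10.8% of all genes tested. With AT-0174 0 were called by edgeR or limma-voom, beside 0.779% of all genes by edgeR. DESeq2, which called 239 genes in all, called 1 of the list (*DUSP5*, adjusted p = 0.00435). *DUSP5* was lower with AT-0174, at 63.4 ± 2.3 CPM against 73.3 ± 2.8 CPM in suspended vehicle cells (SD, n = 3). Its log2 fold change by edgeR was -0.21 (adjusted p = 0.06005). At an unadjusted p under 0.05 by edgeR the list had 6 genes, with no share of all genes taken. The transcription factor *FOS* rose from 0.746 ± 0.178 to 34.6 ± 12.5 CPM (log2 fold change 5.54, adjusted p = 2.89e-06), *MYC* from 57.3 ± 3.39 to 79.9 ± 3.03 CPM (0.48, adjusted p = 4.38e-05), *EGR1* from 39.6 ± 4.33 to 76.98 ± 15.9 CPM (0.96, adjusted p = 0.00132) and *JUN* from 31.9 ± 1.83 to 42.9 ± 4.45 CPM (0.43, adjusted p = 0.00243). The other 3 called genes, named after their values were seen, were *CCND1* (0.17, adjusted p = 0.00300), *DUSP4* (0.16, adjusted p = 0.0306) and *PHLDA1* (-0.73, adjusted p = 0.0159). The *PHLDA1* call was lost without attached replicate 3 or suspended vehicle replicate 2 (0.0554 and 0.0628), and that of *DUSP4* without attached replicate 2 or 3 or any suspended vehicle library (0.0517 to 0.104). Without attached replicate 3 the log2 fold change of *DUSP4* was 0.11. With counts rebuilt from TPM both calls were lost (adjusted p = 0.268 for *PHLDA1* and 0.108 for *DUSP4*). *ETV4* and *ETV5*, ETS factors often used as readouts of FGF signaling, had log2 fold changes of 0.05 (adjusted p = 0.796) and 0.03 (adjusted p = 0.868) in suspension. *ETV1*, also in the list, had larger ones that did not pass edgeR's quasi-likelihood test. They were -0.34 in suspension (adjusted p = 0.0890) and -0.33 with AT-0174 (adjusted p = 0.468). *ETV1*, *ETV4*, *ETV5* and *DUSP5* are named after their values were seen. With AT-0174 the most abundant genes of the list, *CCND1* and *IER3*, had log2 fold changes of -0.01 (adjusted p = 0.965) and 0.09 (adjusted p = 0.485). The medians of the list were 0.09 in suspension and -0.007 with AT-0174.

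The genes whose pattern over the 9 libraries was most like that of each called member were found among 15451 tested genes outside the lists, by the root mean square difference of log2 CPM centred on each gene's mean. For *FGFR4* they were *CDK5*, *PAFAH1B3* and *EEF1AKNMT*, with differences of 0.0179, 0.0227 and 0.0240 beside a median of 0.127 over all genes. For *FGFR1* they were *OSBPL3*, *TGFB3* and *MTSS2* (0.0276, 0.0374 and 0.0393, median 0.200). For *FGFR2* they were the gene listed as ENSG00000237807, *SUSD2* and *KLHL2* (0.134, 0.150 and 0.160, median 0.532), and for *FGFRL1* they were *PLXNA3*, *CPNE7* and *CDHR3* (0.0954, 0.0974 and 0.0981, median 0.246). As the smallest of all, these differences lie below the median by construction. ENSG00000237807 was at only 0.151 to 0.399 CPM and *CDHR3* at 0.324 to 0.414 CPM as condition means. *CPNE7* and *CDHR3* were not called in suspension (adjusted p = 0.174 and 0.460 by edgeR's quasi-likelihood test). *SUSD2* moved from 272 to 135 CPM in suspension, a fall like that of *FGFR2* at a much higher count.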

How the data were processed

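RNA from 9 libraries of MDA-MB-453 cells was analysed. Per the labels and the study's methods, reads were trimmed with cutadapt 3.4 in Trim Galore 0.6.7, aligned with STAR 2.7.9a to GRCh38 and quantified with Salmon 1.10.1. The study's methods name a Universal Plus mRNA library kit and the labels a SMARTER kit. The deposited estimated counts are Salmon output that the authors gave per transcript and summed by gene, without normalization for depth or length. The TPM values, also made by the authors, divide estimated counts by the effective length and scale them to a fixed total. Reads shared between transcripts are split by an estimate whose own error the tests do not hold.

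Estimated counts were rounded, filtered with filterByExpr and scaled by TMM in edgeR 4.0.16 (R 4.3.3). A quasi-likelihood model with condition alone was fitted over all 9 libraries, for genes and again for transcripts. Usage was tested with diffSpliceDGE. Calls are features whose adjusted p (Benjamini–Hochberg) was under 0.05. SE is the log2 fold change over the square root of F, and CPM uses TMM-scaled library sizes. Levels of different genes were compared as TPM, without a test. Positions and transcript names came from GENCODE 44 on GRCh38, where all 147 transcripts were found, and exon sequences from the hg38 genome. Alternative exons were pairs in coding transcripts, within a set range of lengths, that share both neighbouring exons. The procedure was tested on counts simulated with the same dispersion for every feature and no error from splitting reads between transcripts. That test cannot speak for the effect of such error on the transcript and usage results.

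Named were the 7 genes, their transcripts with at least 5% of a gene's TPM as the mean of any condition, up to 4 called genes per list and comparison, and the 3 most similar genes per called member. Members and lists were chosen with earlier results of these data known. A marker gene and an alternative exon are not reported here. The alternatives tried were limma-voom (limma 3.58.1), DESeq2 1.42.0, its size factors within edgeR, no filter, only the 6 libraries of a comparison, a replicate block, counts rebuilt from TPM, and each library left out.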

Additional observations from a re-analysis of the deposited data

How the results depend on the processing

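All 4 calls of the suspension comparison held under DESeq2 size factors, DESeq2, limma-voom, no filter on low counts, only the 6 libraries of the comparison and the replicate block, and 3 or 4 were called when 1 library was left out, the lost one being *FGFRL1*. With counts rebuilt from TPM 0 were called. For AT-0174 the count was 0 under all of these and over the libraries left out, except 1 (*FGFRL1*) without the filter. Of 224 log2 fold changes of members under alternatives, 212 kept their direction and side of the threshold, 7 were no longer called, 1 became called and 4 changed sign, all of them in the AT-0174 comparison. These were *FGFR1* at 0.0093 and *FRS2* at -0.0698 with counts rebuilt from TPM, and *FRS2* at -0.0216 without suspended vehicle replicate 1 and -0.0379 without AT-0174 replicate 3, in a range of -0.0379 to 0.0499 over the libraries left out. The cause was not tested. Over all genes 3297 and 121 were called in the suspension and AT-0174 comparisons. These became 1396 and 31 with counts rebuilt from TPM, the latter 239 with DESeq2 and 499 without the filter, and they ran from 1935 (without attached replicate 3, and 1951 without suspended vehicle replicate 2) to 3260 and from 63 to 128 with 1 library left out, the latter at 63 to 86 without any one suspended library.

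The transcript call of FGFR4-207 stayed under limma-voom and without the filter, went to 0 called under the replicate block (adjusted p = 0.131), and was 0 or 1 over the libraries left out. Members with a change in usage in suspension numbered 1 with limma (*FGFR4*), and 0 or 1 over the libraries left out. The replicate block changed no other call of the members. The deviations of same-numbered libraries from their condition means correlated between -0.065 and 0.053 over 9 pairs. Of the 9 libraries, 3 correlated best with one of their own number. With 3 libraries per condition these values cannot settle whether same-numbered libraries were cultured together.

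Levels were also taken as counts over the mean effective length of a gene's annotated transcripts, each weighted equally. The lowest share of *FGFR4* among the kinase receptors was then 99.4% in place of 99.0%. *FGFR4* stood 149.5 times above the next member in attached cells in place of 121, with *FRS2* next. Of 102 shares of named transcripts, 61 were not within 1 SD when taken from estimated counts. This number also holds shares that were 0 by both measures with an SD of 0, which did not move. A share of TPM weights short transcripts more than a share of counts does. List counts stayed within 1.5 times under DESeq2 size factors and limma-voom. Depth limits the receptors at 1 to 3 TPM, whose transcripts rest on at most 217 reads per gene and library.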
